A study of Mus musculus with 6 samples.

Results

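The 10 genes described here code for SNARE proteins of endosomes and the Golgi apparatus: Stx6, Stx7, Stx8, Stx12, Stx16, Vti1a, Vti1b, Vamp4, Snap23 and Snap29. They were taken by gene symbol from a table of 24935 genes, in which each symbol was found, and all 10 passed the filter on low values, a mean normalized count of at least 10. The RNA came from the left hippocampus of C57BL/6 mice at postnatal day 14 (P14). In the hyperoxia group, pups and their dams were kept in 85% oxygen from P2 to P14, and the other group was kept in room air. Each group had 3 mice and 1 library per mouse, and the mice carried no engineered allele that the labels name. The normalized count is the number of reads on a gene divided by 1 size factor per library. Errors after ± are SDs over the 3 libraries of a group (n = 3). Libraries are numbered 1 to 3 within a group as in the deposited columns, which name the group but not the animal, and every direction below follows the group named there. The study's own signs for the mRNA of several of these genes run opposite to this naming, and the sources used here do not settle which is right. Were the 2 names exchanged, every direction below would turn while absolute log2 differences and p-values would stay. Percent changes would then be relative to the other group and differ in size.

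SNARE proteins drive the fusion of transport vesicles with their target membranes. A Qa, a Qb, a Qc and an R SNARE on facing membranes wind into a tight bundle of helices, and the ATPase NSF later takes the bundle apart for reuse. In neurons the endosomal and Golgi SNAREs sort receptors and membrane returning from the cell surface, while a different set, with Snap25, Vamp2 and Stx1a, releases transmitter at the synapse.

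The libraries held between 30384052 and 38746972 reads on genes, and a member had between 482 reads (Snap23) and 4515 reads (Stx7) in a library, where counting error alone is 4.55% and 1.49%. Among marker lists, 5 of 6 oligodendrocyte genes were called lower in hyperoxia (summed normalized count 211430 to 321840 in air and 144730 to 177380 in hyperoxia), and 2 of 6 genes of hippocampal principal neurons were lower and none higher (49060 to 52530 in air and 31981 to 47998 in hyperoxia). Called higher were 3 of 6 astrocyte genes (167210 to 176110 in air and 205640 to 232460 in hyperoxia), 3 of 5 endothelial genes (5869.5 to 6179 in air and 7522.5 to 8656.5 in hyperoxia) and 1 of 6 microglial genes (9740 to 9766 in air and 10014 to 11190 in hyperoxia). Of 6 general neuronal genes, 2 were higher and 1 was lower (150580 to 160230 in air and 164000 to 180260 in hyperoxia). For genes of neighbouring tissue, 2 of 5 thalamic genes were higher (3220 to 3549.5 in air and 4041.5 to 5450 in hyperoxia) and so were 2 of 6 choroid plexus genes (569 to 1439 in air and 532 to 8177 in hyperoxia, with hyperoxia library 3 at 8177). No marker of any list was at 0 in any library. This held for the thalamic and choroid plexus genes too, so it does not tell the labelled tissue from its neighbours. Among all genes tested, 15.6% were called lower and 14.9% higher, and the counts of these short lists were not tested against those shares. The part of these differences between markers in the results on the SNARE genes was not tested. In bulk tissue, fewer cells of a type and less RNA per cell cannot be told apart.

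In the libraries named as hyperoxia, compared to those named as air and with the doubt on naming given above, Stx16 fell by 26.5%, Stx6 fell by 17.0% and Vti1b fell by 15%, and no member rose past the threshold. These 3 of 10 genes were called by limma at a Benjamini-Hochberg adjusted p under 0.05 over all 17778 genes tested, of which 30.5% were called (15.6% of all genes lower and 14.9% higher). The share of members called was near that of all genes. Stx7, Stx12, Vti1a and Snap29 had all 3 hyperoxia values above all 3 air values without passing the adjusted threshold, and the groups of Stx8, Vamp4 and Snap23 overlapped. The groups did not overlap for 7 of the 10 members, 4 higher and 3 lower, compared to 46.1% of all genes tested, 22.3% higher and 23.8% lower. The median log2 difference, hyperoxia minus air, was 0.12 over the 10 members and −0.01 over all genes, and the median absolute difference was 0.18 and 0.25. The members had mean normalized counts from 547 (Stx8) to 3798 (Stx7), while the genes tested reached down to 10. These medians were not matched for level. The summed normalized count of the 10 members was 21628 ± 322 in air and 21342 ± 400 in hyperoxia, and the ranges overlapped. With 1 library left out, the count of members called ran from 1 (without air library 2, air library 3 or hyperoxia library 1, where 17.3%, 20.6% and 19.0% of all genes were called) to 6 (without hyperoxia library 2, 43.7%). An exact permutation test of 3 against 3 libraries cannot go below p = 0.1, the value it gave for each of the 7 members without overlap.

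**Figure D1:**
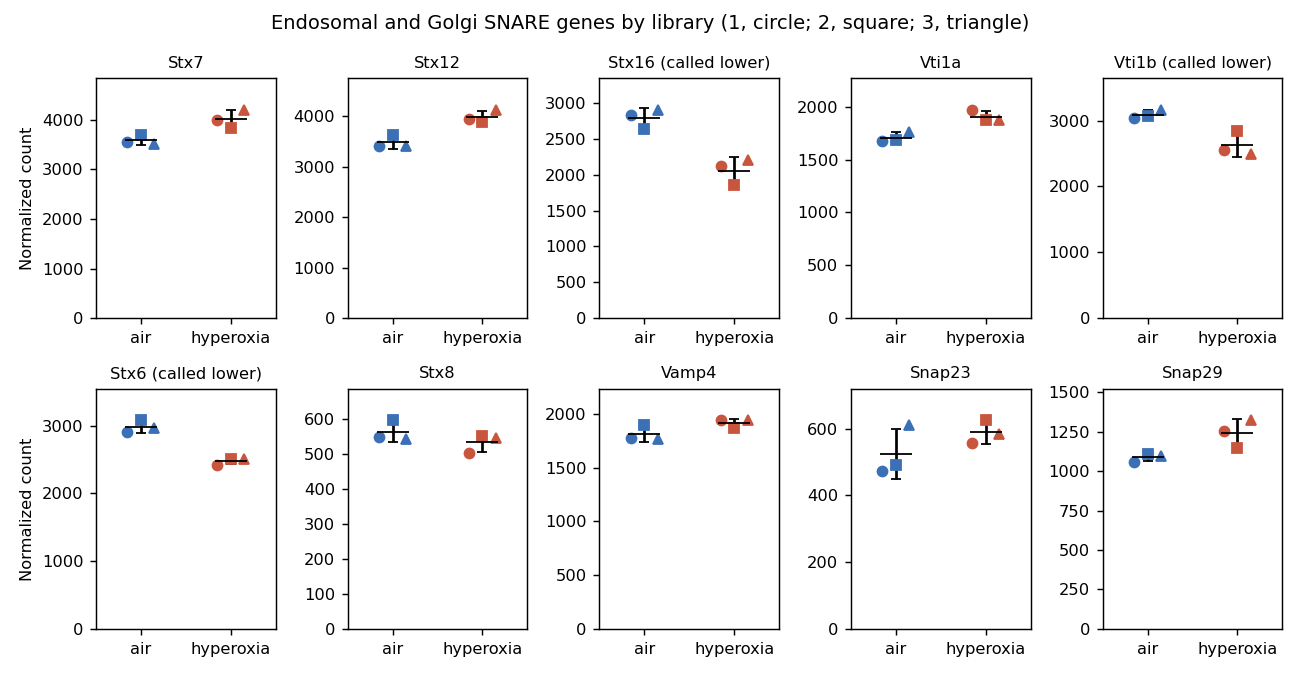
Normalized counts (vertical axis) of each of the 10 SNARE genes in the 3 air and the 3 hyperoxia libraries, 1 point per library, with group means and SDs. Stx16 sits between 2639 and 2904 in air and between 1850 and 2198 in hyperoxia, while the groups of Vamp4, Stx8 and Snap23 overlap.

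Stx16 (ENSMUSG00000027522.15, chr2:174076308-174099771 on GRCm38, plus strand) codes for syntaxin 16, the Qa SNARE that receives vesicles from endosomes at the trans-Golgi network. The normalized count in libraries 1, 2 and 3 was 2833, 2639 and 2904 for air and 2121, 1850 and 2198 for hyperoxia, and the same order is kept for every member below. Every hyperoxia library lay below every air library. Stx16 fell by 0.44 on the log2 scale, after 1 was added to each value (standard error 0.08, 95% interval −0.63 to −0.26, limma adjusted p = 0.0046), the largest difference among the 10 members. It was called under all 16 alternative settings, with adjusted p between 9.6e-05 and 0.029.

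Stx6 (ENSMUSG00000026470.14, chr1:155158715-155208256, plus strand) codes for syntaxin 6, a Qc SNARE that pairs with syntaxin 16 at the trans-Golgi network and with syntaxin 12 on early endosomes. Its normalized counts were 2907, 3078 and 2967 in air and 2420, 2510 and 2503 in hyperoxia. The 3 hyperoxia libraries lay close together and all below the air libraries. By the column names, Stx6 fell by 0.27 on the log2 scale (standard error 0.07, 95% interval −0.41 to −0.12, limma adjusted p = 0.013). The call held under 13 of 16 alternatives and was lost without air library 2 (adjusted p = 0.075), air library 3 (0.052) or hyperoxia library 1 (0.057), at differences between −0.27 and −0.25.

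Vamp4 (ENSMUSG00000026696.15, chr1:162570515-162599084, plus strand) is the R SNARE that enters the same Golgi and endosomal bundles as Stx6. The air libraries had normalized counts of 1771, 1896 and 1766 and the hyperoxia libraries 1938.5, 1868 and 1939. Air library 2 lay above hyperoxia library 2, so the groups overlapped. The log2 difference was 0.08 (95% interval −0.07 to 0.24, limma adjusted p = 0.39), and no alternative called it.

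Vti1a (ENSMUSG00000024983.9, chr19:55316295-55627309, plus strand) is the Qb SNARE of the trans-Golgi and early endosomal bundles. Air-exposed mice had normalized counts of 1676, 1683 and 1764, compared to 1971, 1877 and 1871.5 in hyperoxia-exposed mice. All hyperoxia libraries were above the air libraries by a margin that did not pass the adjusted threshold. The log2 difference was 0.16 (95% interval 0.01 to 0.31, limma adjusted p = 0.10), and none of the 16 alternatives called it, with adjusted p from 0.052 to 0.27. Within the set Stx16, Stx6, Vti1a and Vamp4, then, the Qa and Qc genes fell, and the Qb and R genes had differences above 0 that were not called.

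The 250 bases before the RefSeq start (GRCm38.p6) are printed for the syntaxin genes with the lowest adjusted p, Stx16 and Stx6. They are also printed for Vamp4, whose protein joins those of Stx16 and Stx6 but whose mRNA was not called. Of the members, Stx7, Stx16 and Vamp4 have 2 RefSeq starts each, and the start nearest the annotated gene start was used. Capitals mark CGGAAG (an ETS core), GGGCGG (a GC box) and CACGTG (an E-box, also the core of CLEAR elements of lysosomal genes), searched on both strands.
Stx16, chr2:174076052-174076301, plus strand: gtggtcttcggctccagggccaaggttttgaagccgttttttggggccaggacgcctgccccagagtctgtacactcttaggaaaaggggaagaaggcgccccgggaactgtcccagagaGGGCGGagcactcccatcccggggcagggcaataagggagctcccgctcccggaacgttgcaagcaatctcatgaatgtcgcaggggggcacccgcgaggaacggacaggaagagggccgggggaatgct
Stx6, chr1:155158453-155158702, plus strand: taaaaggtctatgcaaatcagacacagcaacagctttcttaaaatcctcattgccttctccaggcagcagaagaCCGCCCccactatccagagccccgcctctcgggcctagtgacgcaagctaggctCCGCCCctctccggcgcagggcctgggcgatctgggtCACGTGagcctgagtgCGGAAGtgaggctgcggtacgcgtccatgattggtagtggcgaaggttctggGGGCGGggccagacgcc
Vamp4, chr1:162570265-162570514, plus strand: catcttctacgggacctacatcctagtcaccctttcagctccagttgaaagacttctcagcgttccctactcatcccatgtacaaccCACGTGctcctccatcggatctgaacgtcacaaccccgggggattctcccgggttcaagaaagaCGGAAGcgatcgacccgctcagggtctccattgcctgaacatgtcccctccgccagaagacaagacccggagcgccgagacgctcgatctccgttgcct
The Stx6 window held 1 CACGTG, 1 CGGAAG and 3 matches to GGGCGG, the Vamp4 window 1 CACGTG and 1 CGGAAG, and the Stx16 window 1 GGGCGG. All 10 members had a window in the table of 32851 windows from 27025 genes. Among members, CACGTG was found in 2 (Stx6 and Vamp4), CGGAAG in 3 (with Vti1a) and GGGCGG in 4 (Stx6, Stx12, Stx16 and Vti1b), and among all windows in 6.02%, 13.6% and 32.7%. CCAAT was found in 4 members (Snap23, Stx6, Stx7 and Stx12) and in 33.8% of all windows, and TATAAA in 0 members and in 12.4%. GC content was 61.2% for Stx6, 62.8% for Stx16 and 57.2% for Vamp4, with 16, 15 and 18 CpG sites, against medians of 52.4% and 6 over all windows. Stx6, which fell, and Vamp4, which was not called, both held CACGTG and CGGAAG.

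Stx12 (ENSMUSG00000028879.4, chr4:132853501-132884509, minus strand) codes for the Qa SNARE of early and recycling endosomes, also known as syntaxin 13. In air the normalized counts were 3406, 3624 and 3408.5, and in hyperoxia they were 3939, 3887 and 4123. The groups did not overlap, and the difference lay at the threshold. By the column names, the log2 difference was 0.20 (standard error 0.07, 95% interval 0.05 to 0.34, limma adjusted p = 0.051). It was called by 6 of 16 alternatives (adjusted p 0.016 to 0.17 over all 16), among them TMM scaling (0.048) and DESeq2 on the recovered reads (0.030).

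Stx7 (ENSMUSG00000019998.6, chr10:24149302-24190222, plus strand) codes for the Qa SNARE of late endosomes and lysosomes. Normalized counts of Stx7 were 3561, 3701 and 3501 in air and 3991, 3831 and 4201.5 in hyperoxia. Each hyperoxia library was above each air library, the closest being hyperoxia library 2. The log2 difference of 0.16 (95% interval 0.01 to 0.31, limma adjusted p = 0.10) was called by 1 of 16 alternatives, the fit without hyperoxia library 2 (adjusted p = 0.023), and was 0.10 with a correction for transcript length and GC content (adjusted p = 0.17).

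Vti1b (ENSMUSG00000021124.13, chr12:79156017-79172667, minus strand) is the Qb SNARE that joins syntaxin 7 and syntaxin 8 on late endosomes. The 3 air-exposed mice had normalized counts of 3032, 3072 and 3165, and the 3 hyperoxia-exposed mice 2558, 2846 and 2489. The hyperoxia libraries were all lower, with library 2 nearest to the air values. Vti1b fell by 0.23 on the log2 scale (standard error 0.07, 95% interval −0.40 to −0.07, limma adjusted p = 0.038), and 9 of 16 alternatives called it (adjusted p 0.0024 to 0.16). A correction for transcript length and GC content in each library moved the difference to −0.11 (adjusted p = 0.16), and the call was also lost under limma without the mean-variance trend (0.086) and without any single library of air (0.099, 0.12 and 0.13), hyperoxia library 1 (0.12) or hyperoxia library 3 (0.090). Exons of Vti1b share 285 bases with Arg2 on the opposite strand, a gene with a mean normalized count of only 59.4.

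Stx8 (ENSMUSG00000020903.13, chr11:67966193-68207148, plus strand) is the Qc SNARE of that late endosomal bundle. Its normalized counts ran from 543 to 595 in air and from 502 to 550 in hyperoxia. The groups overlapped. The log2 difference of −0.08 (95% interval −0.27 to 0.12, limma adjusted p = 0.53) stayed uncalled in all 16 alternatives and was −0.03 without air library 2 or hyperoxia library 1. Of the genes for the late endosomal Q SNAREs, then, only the Qb gene Vti1b passed the test.

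Snap23 and Snap29 code for proteins that bring both a Qb and a Qc helix. Snap23 (ENSMUSG00000027287.14, chr2:120567671-120601255, plus strand) serves fusion at the plasma membrane and, in neurons, delivery of receptors to the postsynaptic side. Its normalized counts were 474, 490.5 and 611 in air and 558, 625 and 585 in hyperoxia. Air library 3 stood above both other air libraries and above 2 of the hyperoxia libraries. The log2 difference of 0.17 (95% interval −0.08 to 0.42, limma adjusted p = 0.27) stayed uncalled in all 16 alternatives, but it was 0.10 without air library 1 or with the length and GC correction and 0.29 without air library 3.

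Snap29 (ENSMUSG00000022765.8, chr16:17405986-17430827, plus strand) acts on several internal membranes, and with Stx17 and Vamp8 it fuses autophagosomes with lysosomes. Its normalized counts were 1060, 1110 and 1098.5 in air and 1254, 1150 and 1322 in hyperoxia. All hyperoxia libraries were higher, with library 2 closest to air. The log2 difference was 0.19 (95% interval 0.01 to 0.36, limma adjusted p = 0.10), called by 1 of 16 alternatives, the fit without hyperoxia library 2 (0.015). Exons of Snap29 share 60 bases with the opposite strand of Pi4ka, a lipid kinase gene at 7812 ± 252 in air and 7784 ± 920 in hyperoxia (log2 difference −0.01, limma adjusted p = 0.93). The library kit kept the strand, but the sources used here do not say whether the counting used it. The autophagosomal partners, named after their values were seen, were Stx17, which rose from 836 ± 72.4 to 1173 ± 66.2 at a log2 difference of 0.49 (limma adjusted p = 0.0038), and Vamp8, at 200 ± 8.73 in air and 168 ± 18.1 in hyperoxia (log2 difference −0.25, limma adjusted p = 0.15).

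**Figure D2:**
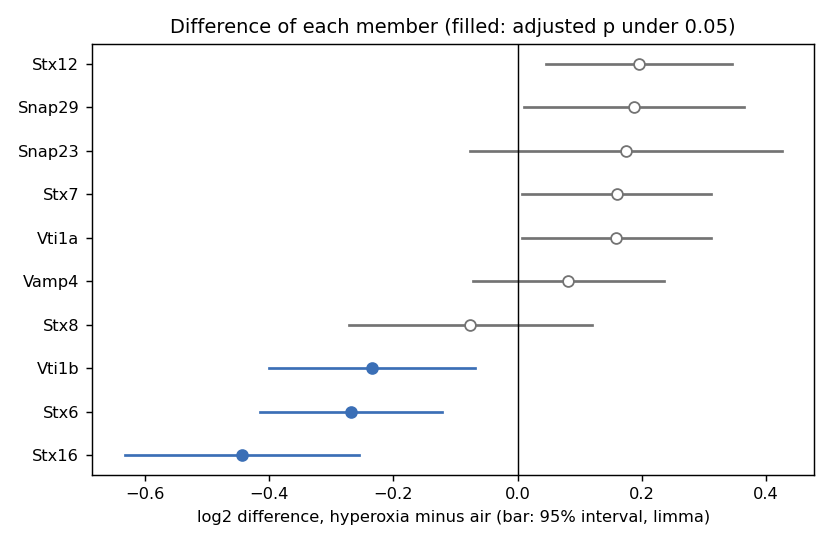
Log2 difference of each member, hyperoxia minus air (horizontal axis), with its 95% interval from limma; members called lower are in blue and filled. The points run from −0.44 for Stx16 to 0.20 for Stx12.

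Since members work in bundles, ratios between partners were compared within each library, where the size factor cancels. Over 10 pairs chosen by known partnership or family, the air and hyperoxia ratios did not overlap in 8. Of these, 4 share Stx6, and the share of other gene pairs without overlap was not computed, so the count is a description. Stx6 relative to Stx12 was 0.858 ± 0.011 in air and 0.622 ± 0.021 in hyperoxia, a log2 difference of −0.46 and the largest of the 10. The mean ratio of Stx6 to Vti1a was 1.75 in air and 1.30 in hyperoxia (−0.43), and that of Stx6 to Vamp4 was 1.65 and 1.29 (−0.35). Stx6 and Stx16 both fell, and the ratio between them overlapped between the groups, at log2 0.10 ± 0.11 in air and 0.27 ± 0.14 in hyperoxia (exact permutation p = 0.3, adjusted over the 10 pairs 0.33), with a log2 difference of 0.18, or 0.09 without hyperoxia library 2.

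Among late endosomal pairs, Stx7 relative to Vti1b was 1.16 ± 0.050 in air and 1.53 ± 0.17 in hyperoxia, a log2 difference of 0.39 that was 0.20 after the length and GC correction. The paralog ratio of Vti1a to Vti1b was 0.553 ± 0.0047 in air and 0.727 ± 0.059 in hyperoxia, again 0.39, or 0.23 after the correction. The log2 ratio of Stx7 to Stx8 differed by 0.24 and that of Stx6 to Stx8 by −0.19. The Qa genes Stx7 and Stx12 had a ratio near 1 in both groups, 1.03 in air and 1.01 in hyperoxia, and its values did not overlap at a log2 difference of only −0.04. The ratio of Snap23 to Snap29 overlapped between the groups, with a log2 difference of −0.01 (exact permutation p = 0.7). Each of the 8 pairs without overlap had an exact permutation p of 0.1, the smallest that 3 against 3 allows, and 0.125 after adjustment, so none passed 0.05.

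**Figure D3:**
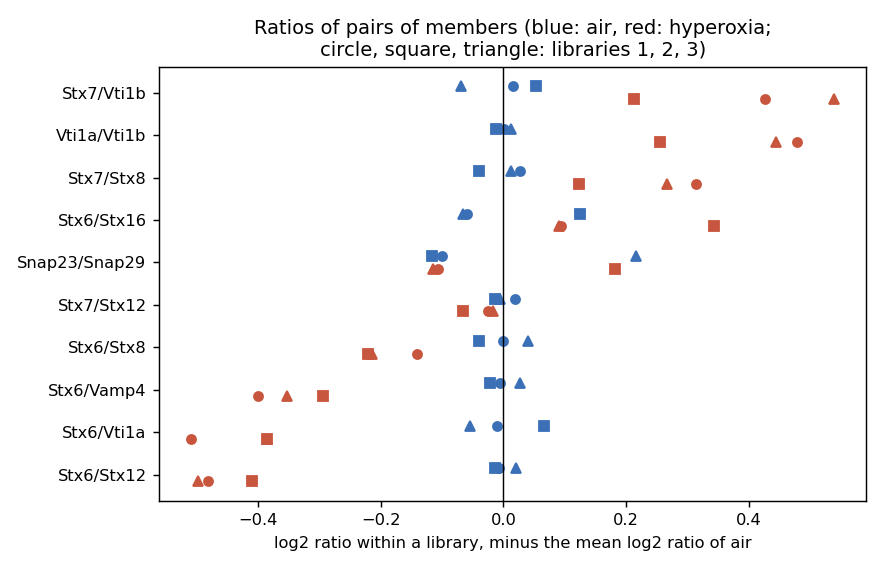
Log2 ratio of normalized counts between 10 pairs of members in each library, less the mean log2 ratio of the air libraries (horizontal axis), with air in blue and hyperoxia in red. The hyperoxia points average −0.46 for Stx6/Stx12 and lie apart from air, while those of Snap23/Snap29 average −0.01 and overlap air.

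Levels of different genes were compared as normalized count per kb of merged exon, the length of all annotated exons of a gene. In air, Vti1b was highest (1917 ± 42.3 per kb), followed by Stx12 (1091 ± 39.2), Stx7 (802 ± 23.0), Stx16 (705 ± 34.7), Vamp4 (397 ± 16.1), Snap29 (316 ± 7.55), Stx6 (281 ± 8.16), Vti1a (139 ± 3.95), Snap23 (122 ± 17.4) and Stx8 (78.7 ± 4.07; SD, n = 3 each). Only the neighbours Vti1a and Snap23 overlapped in air. The order of the means was the same in hyperoxia, where no neighbours overlapped. The span from Vti1b to Stx8 was 24.3-fold in air and 21.9-fold in hyperoxia. Annotated exon length weighs on this order, since it was 12.3 kb for Vti1a and 1.61 kb for Vti1b, and a transcript that uses part of the annotated exons has a higher level than this scale gives.

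**Figure D4:**
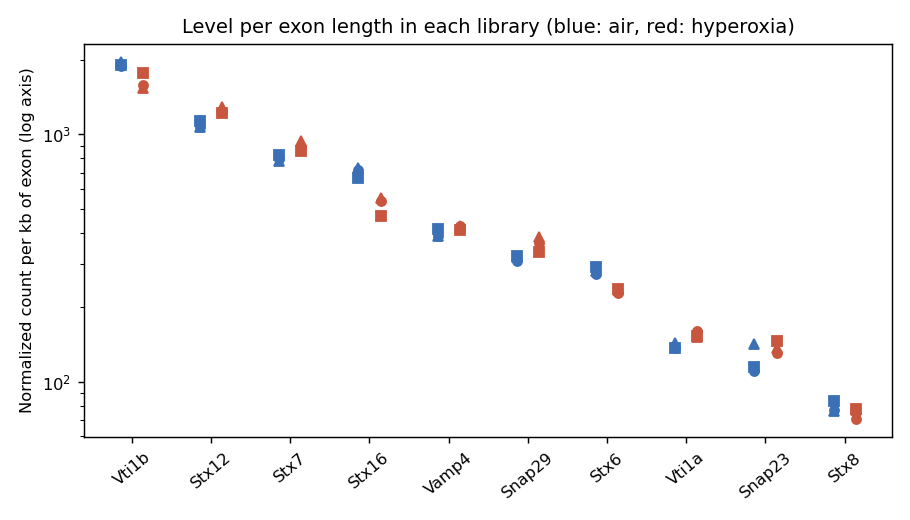
Normalized count per kb of merged exon (log axis) of the 10 members in air (blue) and in hyperoxia (red), 1 point per library. The order runs from Vti1b, at means of 1917 in air and 1632 in hyperoxia, down to Stx8, at 78.7 and 74.7.

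The genes most like each called member were those with the highest Pearson correlation of log2 values over the 6 libraries. For Stx16 these were Gm26768, Leng8 and Dkc1 (each r = 0.999), for Stx6 they included Tsg101-ps (0.998) and Gm20257 (0.996), and for Vti1b Pla2g6 (0.998), Slc50a1 (0.996) and Aaas (0.996). With 6 libraries in 2 groups, the difference between the groups sets most of such an r, and 442, 761 and 496 genes passed r = 0.95 with Stx16, Stx6 and Vti1b. The named genes are therefore a description of the pattern.

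Of 28 other SNARE genes, 27 were tested and 10 were called, 4 higher and 6 lower (median log2 difference 0.01). That was 37.0%, compared to 30.5% of all genes tested. The largest rise called was that of Vamp3 (cellubrevin), an R SNARE of recycling endosomes, from 1009 ± 121 to 1437 ± 225, a log2 difference of 0.51 (standard error 0.13, limma adjusted p = 0.014), a call lost without air library 1 (0.40, adjusted p = 0.069) and under limma without the trend (0.054). The largest fall called was that of Snap25, the synaptic homologue of Snap23 and Snap29, from 58506 ± 2266 to 44408 ± 4339, a log2 difference of −0.40 (standard error 0.09, limma adjusted p = 0.011), which was −0.15 and not called after quantile normalization (adjusted p = 0.20) and was also not called without air library 1 (0.053) or air library 2 (0.061). With the length and GC correction it was −0.61 (adjusted p = 0.0029). Thus Snap25 passed the test at a level below air, while Snap23 and Snap29, with differences of 0.17 and 0.19, did not pass it; the difference between these genes was not tested.

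SM proteins, NSF, its adaptors and membrane tethers dock, proofread or recycle SNARE bundles. Of 21 such genes, 4 were called, 2 higher and 2 lower (19.0% against 30.5% of all genes tested, median −0.01). Scfd2, of the SM (Sec1/Munc18) family, rose from 481 ± 22.8 to 642 ± 41.7, a log2 difference of 0.41 (limma adjusted p = 0.0080). Vps33b, an SM protein of late endosomal traffic, fell from 733 ± 22.4 to 594 ± 6.53, a log2 difference of −0.30 (limma adjusted p = 0.016), a call lost without any 1 of the air libraries (0.076, 0.061 and 0.050) or hyperoxia library 1 (0.058). The SM protein that binds syntaxin 16, Vps45, was named after its values were seen: it was at 1274.5 ± 99.1 in air and 1093 ± 112 in hyperoxia and was not called (log2 difference −0.22, limma adjusted p = 0.11).

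Of 24 endosomal and Golgi Rab and retromer genes, 9 were called, 6 higher and 3 lower (median −0.06). These made 37.5%, compared to 30.5% of all genes tested. Rab31, a Rab GTPase of trans-Golgi to endosome traffic, rose from 2080 ± 86.9 to 3069 ± 155, a log2 difference of 0.56 (limma adjusted p = 9.8e-04). Vps29, a subunit of retromer, which returns receptors from endosomes to the trans-Golgi network, fell from 6540 ± 534 to 4472 ± 177, a log2 difference of −0.55 (limma adjusted p = 0.0016). The other core subunits, named after their values were seen, were Vps35, which rose by 0.40 (limma adjusted p = 0.0069), and Vps26a and Vps26b, both at −0.08 (limma adjusted p = 0.41 and 0.38). The core retromer genes called, Vps29 and Vps35, thus moved in opposite directions.

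**Figure D5:**
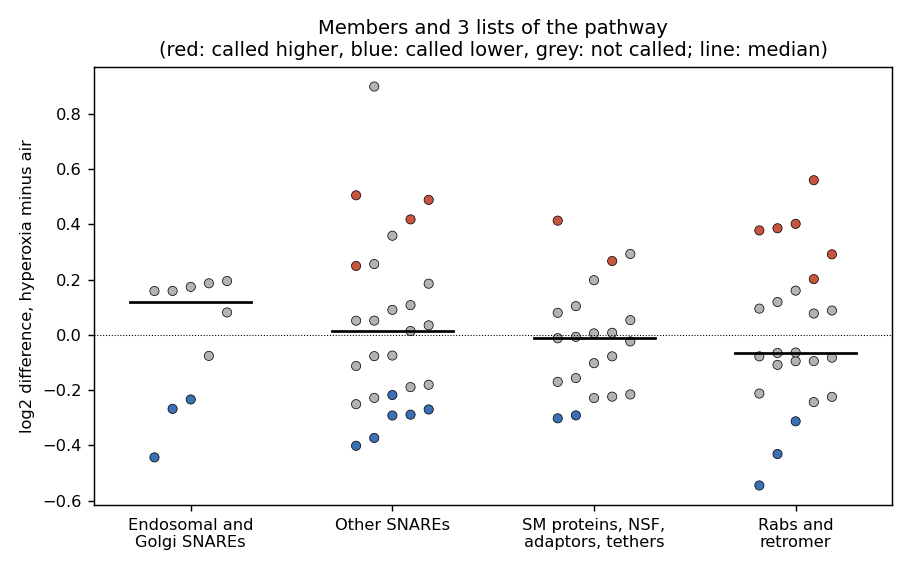
Log2 difference, hyperoxia minus air (vertical axis), of each tested gene in the 10 members and in the 3 other lists, with genes called higher in red, genes called lower in blue and medians as black lines. The medians are 0.12 for the members, 0.01 for other SNARE genes, −0.01 for the regulators and −0.06 for the Rab and retromer genes.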

How the data were processed

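RNA of 6 left hippocampi was sequenced from polyA-selected, strand-specific libraries. The submitters' processing notes name FastQC, STAR 2.5.3a, HTSeq and DESeq2. The sources used here name no genome build or annotation for the counts. The signal that the authors deposited per gene and library is a read count divided by 1 size factor per library. Divided by the value of 1 read, 100% of the values came within 0.01 of whole numbers, so reads were recovered. No replicates were alike enough to be a repeated library. The chi-square per gene, a measure of how far a pair of libraries differs, was 6.5 to 10.5 within air. It was 15.1 between hyperoxia libraries 1 and 3, and 31.4 and 47.2 between hyperoxia library 2 and libraries 1 and 3. Hyperoxia library 2 also had the fewest reads on genes, 30384052. A second deposited table, of the authors' own comparison (mean, log2 fold change, standard error, statistic, p-value and adjusted p), was not used.

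Genes with a mean of at least 10 (17778 of 24935) were tested in R 4.3.3 by limma 3.58.1 (log2 of the deposited value plus 1, fitted with a trend of variance on mean). P-values were adjusted by Benjamini-Hochberg, and genes under 0.05 were called. The log2 scale of the value plus 1 understates changes of low genes. Limma p-values rest on the spread between 3 mice per group, with the variance of each gene drawn towards the trend over all genes tested. Pups were exposed together with their dams and were of both sexes. The study's text gives no litter or sex for the sequenced mice, so the part of litter or sex in the group differences was not tested. Of the count tools run on recovered reads, edgeR 4.0.16 (quasi-likelihood) called 5501 genes and DESeq2 1.42.0 called 5611, against 5425. Also tried were a pseudocount of 0.5 or 5, a minimum mean of 50, no filter, TMM scaling, quantile normalization, no trend, a length and GC correction (mgcv 1.9.3, 17735 genes) and each library left out, 16 in all.

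Lengths and positions came from GENCODE M21 (GRCm38), which held 99.68% of the identifiers, and promoters from RefSeq. Ratios of pairs were compared with 2-sided exact permutation tests. Named were every member, the called gene with the largest rise and fall in each other list, genes overlapping a member with a higher count, and the 3 genes most correlated with each called member, of which 1 is not reported here. The members and lists were chosen with earlier results of these data known. The labels name no batch. Plots were drawn with matplotlib 3.10.9 under Python 3.11.15, and tables handled with numpy 2.4.6 and pandas 2.3.3.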

Additional observations from a re-analysis of the deposited data

How the results depend on the processing

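No paired analysis was possible because the labels number the mice 1 to 3 in air and 4 to 6 in hyperoxia and so share no number, and the numbers 1 to 3 that the deposited columns repeat in both groups are tied to no animal. With 1 library left out, between 3056 (without air library 1) and 7771 (without hyperoxia library 2) genes were called, compared to 5425 with all 6. The 10 members gave 1 to 6 calls, 6 being without hyperoxia library 2. Under the alternatives that kept all libraries, 2 to 4 members were called. Other SNARE genes gave 2 to 14 calls with a library left out (lowest without air library 1, highest without hyperoxia library 2) and 4 under limma without the trend, against 10. The regulators gave 1 (without any of the air libraries or hyperoxia library 1) to 11 (without hyperoxia library 2), against 4. The Rab and retromer list gave 6 to 12, against 9. No member changed direction under any of the 16 alternatives.

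The log2 difference of the Snap23 to Snap29 ratio ranged from −0.11 to 0.095 with a library left out. That of Pi4ka was 0.034 after quantile normalization, 0.0044 with DESeq2 and −0.15 with the length and GC correction, and ranged from −0.064 to 0.090 with a library left out. The cause of these shifts was not tested. With 3 mice per group, a member's 95% interval could be as wide as −0.08 to 0.42 (Snap23).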
